A study of Mus musculus with 12 samples.

Results

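The dual-specificity phosphatase genes Dusp1, Dusp2, Dusp4, Dusp5, Dusp6 and Dusp10, the Sprouty genes Spry1 and Spry2, and the genes of the Sprouty-related proteins, Spred1 and Spred2, were followed in splenic B cells with and without Runx1. These 10 genes were picked by their symbols, out of 37991 Ensembl identifiers in the table of read counts, and all 10 passed the filter on low counts that left 13538 genes for testing. The mice were 8 weeks old. The control mice (Cre-only) carried the CD23-iCre transgene alone. The Runx1 c-k/o mice carried the same transgene and a Runx1 gene whose exon 4 lies between LoxP sites, so every sample came from a mouse with the Cre transgene. The CD23 promoter turns the transgene on when B cells reach the transitional stage, and earlier B cell stages are therefore not modelled. Resting B cells were taken from the spleen by negative selection against other cell types and CD43+ activated B cells. RNA was sequenced from resting cells and from cells after 3 h of incubation with anti-IgM + IL-4, which engages the BCR and the IL-4 receptor, with 3 samples in each of the 4 groups.

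MAPK signalling carries the BCR signal through RAS, RAF, MEK and ERK, and through parallel branches that end in JNK and p38. The DUSP proteins of the MAPK phosphatase class end the signal by removing phosphate from both the threonine and the tyrosine that switch a MAPK on, and their genes are themselves often induced by MAPK activity, which makes them feedback inhibitors. DUSP1, DUSP2, DUSP4 and DUSP5 act in the nucleus, DUSP6 acts on ERK in the cytoplasm, and DUSP10 prefers JNK and p38. The Sprouty and SPRED proteins act further up, between RAS and RAF, and SPRED1 brings the RAS inhibitor neurofibromin to the membrane.

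The levels below are normalized CPM, that is counts scaled to a common library size after TMM normalization. Totals were between 14442251 and 23641552 counts per sample, and the floor of 3 counts lay at 0.1295 to 0.1991 normalized CPM, which covers counting error only. Runx1 itself was at 81.8 to 86.7 CPM in resting Cre-only and 95.7 to 103 CPM in resting Runx1 c-k/o cells, and at 34.9 to 38.5 and 47.3 to 74.5 CPM after 3 h. Runx1 RNA was thus higher in Runx1 c-k/o cells at 3 h (log2 fold change 0.80, edgeR adjusted p = 0.00769). These counts cover the whole gene and do not separate exon 4, so they are no check of the deletion. The paper reports by western blot that resting Runx1 c-k/o B cells lacked the RUNX1 protein. The 8 B cell markers summed to 8340 to 8620 CPM in Cre-only and 9240 to 9520 CPM in Runx1 c-k/o cells at rest. At 3 h they summed to 4880 to 5210 and 5170 to 5730 CPM. The 8 myeloid markers summed to 217 to 417 CPM at rest and to 23.4 to 50.9 CPM at 3 h, with Ly6g at 0 in 10 of 12 samples. The T cell markers summed to 30.9 to 88.1 CPM, most of it Lck, and the CD3 genes stayed at 17 counts or fewer in every library. The 4 plasma cell markers summed to 165 to 401 CPM at rest, with overlapping genotypes, and at 3 h to 286 to 348 CPM in Cre-only and 398 to 439 CPM in Runx1 c-k/o cells. Most of the difference at 3 h was in Xbp1 (means of 241 and 327 CPM), while Sdc1 was at 3.98 and 3.41 CPM. The 5 erythroid markers, led by the globin genes Hbb-b1 and Hba-a1, summed to 37.5 to 255 CPM in Cre-only and 247 to 411 CPM in Runx1 c-k/o cells at rest, and to 12.3 to 137 and 115 to 203 CPM at 3 h. The part of these markers in the genotype differences given below was not tested. Among the Runx1 c-k/o libraries, resting replicate 2 and 3-h replicate 1 stood apart from their groups. The chi-square per degree of freedom between replicates was 30.7 to 37.6 and 60.9 to 85.1 for pairs with these libraries, 3.06 to 5.99 within the Cre-only groups, and 4.99 and 13.98 for the remaining Runx1 c-k/o pairs.

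The 250 bases before the RefSeq start of 4 of the genes are shown because they hold, or in the case of Dusp2 lack, the sequence motifs that were searched, and because 3 of these genes fell and Dusp2 rose on activation (though not with a factor of unwanted variation, as given below). They are read 5′ to 3′ on the strand of the gene in GRCm38.p6, a later build than the mm9 of the counts, from chr17:26508473-26508722 (minus strand) for Dusp1, chr19:53528895-53529144 (plus strand) for Dusp5, chr11:19924192-19924441 (plus strand) for Spred2 and chr2:127335909-127336158 (plus strand) for Dusp2. Capitals mark matches to the core of the cAMP response element (CRE), TGACGT, on either strand, and to the CArG box of the serum response element.
Dusp1: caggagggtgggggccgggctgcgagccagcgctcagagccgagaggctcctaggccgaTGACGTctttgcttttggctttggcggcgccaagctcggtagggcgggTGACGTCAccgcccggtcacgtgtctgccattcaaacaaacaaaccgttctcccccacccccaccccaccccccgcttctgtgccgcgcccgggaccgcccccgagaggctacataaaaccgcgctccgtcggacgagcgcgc
Dusp5: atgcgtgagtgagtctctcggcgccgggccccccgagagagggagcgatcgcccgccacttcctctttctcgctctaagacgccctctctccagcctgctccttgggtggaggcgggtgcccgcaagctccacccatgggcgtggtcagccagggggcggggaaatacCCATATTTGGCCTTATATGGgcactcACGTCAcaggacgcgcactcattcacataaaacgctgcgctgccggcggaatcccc
Spred2: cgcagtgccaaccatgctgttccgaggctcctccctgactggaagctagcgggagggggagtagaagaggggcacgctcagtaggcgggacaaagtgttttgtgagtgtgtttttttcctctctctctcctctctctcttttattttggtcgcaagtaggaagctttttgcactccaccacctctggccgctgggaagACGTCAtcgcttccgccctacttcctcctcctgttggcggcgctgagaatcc
Dusp2: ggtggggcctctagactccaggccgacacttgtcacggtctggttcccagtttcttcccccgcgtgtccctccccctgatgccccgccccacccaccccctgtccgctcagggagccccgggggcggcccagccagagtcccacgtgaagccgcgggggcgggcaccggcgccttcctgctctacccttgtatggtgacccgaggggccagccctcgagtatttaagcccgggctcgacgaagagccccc
Counted from the start site, the Dusp1 sequence held the CRE core at -191 to -186 and again, on the plus strand at -143 to -138 and the minus strand at -141 to -136, as overlapping matches that make a full palindrome. Dusp5 held adjoining CArG boxes at -82 to -73 and -72 to -63, each read on both strands, and a CRE core at -56 to -51. Spred2 held a CRE core at -52 to -47.

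RefSeq entries of 300 bases (250 before to 50 after the start) were at hand for 9 of the 10 genes, all but Dusp4. The CRE core was found in 3 of the 9 and in 7.51% of all 32851 promoters, and the CArG box in Dusp5 alone of the 9 and in 1.63% of all. The ETS core, CCGGAA, was found in Spry2 alone, at 34 to 39 after the start, and in 14.9% of all promoters. The RUNX motifs TGTGGT and TGCGGT, present in 22.4% of all promoters on either strand, and the AP-1 motifs TGAGTCA and TGACTCA, present in 5.2%, were in 0 of the 9. Dusp6 and Dusp10, which fell on activation in both genotypes, held none of these motifs, and neither did Dusp2, Spry1 and Spred1. A link between a motif and the direction of change was not tested. These are matches of letters in a short window and do not show where a factor binds.

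Most of the feedback genes changed from rest to 3 h, and in both directions within the DUSP and SPRED families. No group was kept for 3 h without anti-IgM + IL-4. Stimulation and time in culture therefore cannot be told apart, and activation here stands for both. In Cre-only cells 9 of the 10 genes passed the test (an adjusted p under 0.05, from the quasi-likelihood test of edgeR, adjusted over all tested genes by Benjamini-Hochberg), 3 higher and 6 lower after 3 h. In the same comparison 75.0% of all tested genes were called, 38.6% higher and 36.4% lower, so the count of 9 is near that of a transcriptome that changed broadly. In Runx1 c-k/o cells 8 of the 10 passed, 3 rising and 5 falling, against 74.3% of all tested genes (37.7% rising and 36.6% falling). The median log2 fold change of the 10 genes was -0.74 in Cre-only cells and -0.37 in Runx1 c-k/o cells, and that of all tested genes was 0.03 and 0.00. The samples of rest and 3 h did not overlap for 9 of the genes in Cre-only cells, against 84.4% of all tested genes, and for 7 in Runx1 c-k/o cells, against 72.8%. In RNA from a bulk population, fewer cells that express a gene and less of its RNA per cell cannot be told apart. No time between rest and 3 h was sequenced, so a brief rise before 3 h would not be seen.

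**Figure D1:**
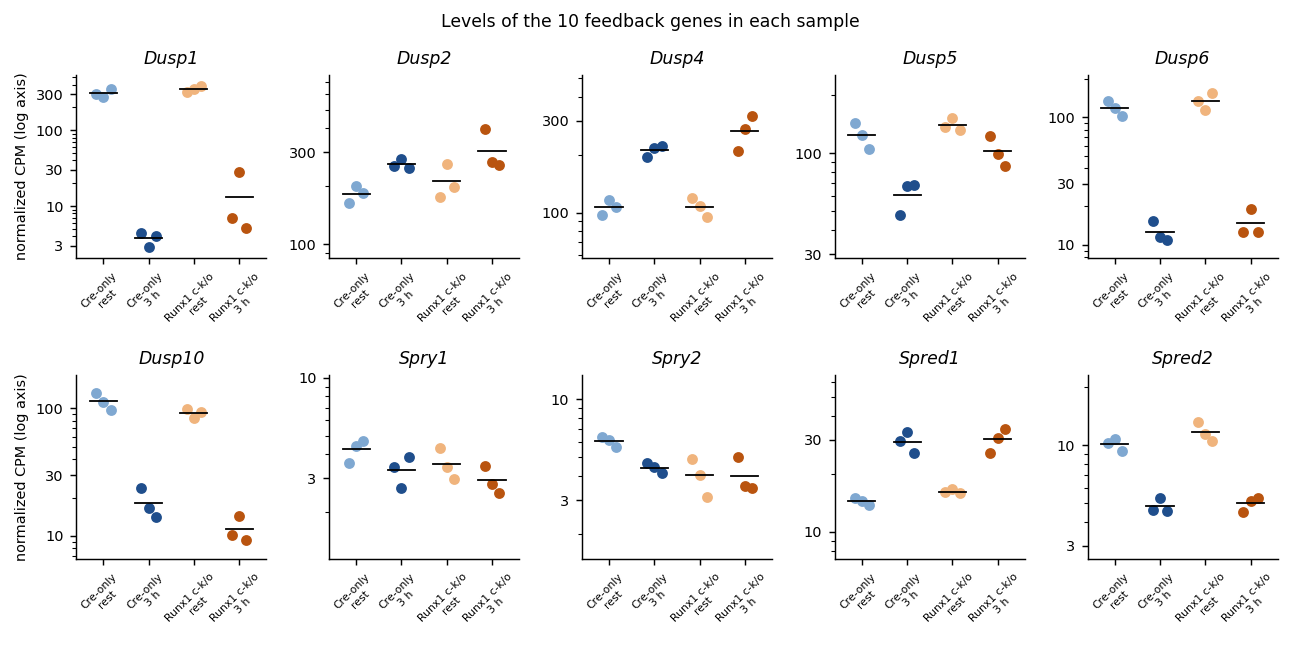
Normalized CPM (log axis) of each of the 10 genes in the 12 samples, 1 panel per gene. Points are samples in the order of replicates 1 to 3 and bars are group means; Dusp1, Dusp6 and Dusp10 drop steeply at 3 h in both genotypes, Dusp4 and Spred1 rise, and Dusp1 in 3-h Runx1 c-k/o replicate 2, at 28.0 CPM, lies above the other 3-h samples.

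Dusp1 encodes MKP-1, the classical immediate early phosphatase that acts on p38, JNK and ERK in the nucleus. It lies on chromosome 17 of mm9 from 26642535 to 26645464, on the minus strand. In replicates 1, 2 and 3 it was at 304, 277 and 353 CPM in resting Cre-only cells and at 4.49, 2.87 and 4.08 CPM at 3 h. In Runx1 c-k/o cells it was at 319, 353 and 387 CPM at rest and at 6.89, 28.0 and 5.18 CPM at 3 h. Every 3-h sample lay far below every resting sample, and replicate 2 of the Runx1 c-k/o cells kept the most. The fall was 80.6-fold in Cre-only cells (log2 fold change -6.33, standard error 0.551, edgeR adjusted p = 5.66e-07) and 26.5-fold in Runx1 c-k/o cells (-4.73, standard error 0.498, edgeR adjusted p = 3.12e-06). Without 3-h Runx1 c-k/o replicate 2 the latter was -5.86 (edgeR adjusted p = 4.57e-09). Both falls were smaller once edgeR's fit held the RUVs factor of unwanted variation, at -5.23 in Cre-only cells (edgeR adjusted p = 0.00177) and -3.75 in Runx1 c-k/o cells (edgeR adjusted p = 0.00424).

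The higher Dusp1 value of that library came with higher values of other genes that fell on activation. The level at 3 h was expressed as a percentage of the resting mean of the same genotype. For Dusp1 it was 1.44%, 0.923% and 1.31% in the Cre-only samples and 1.95%, 7.94% and 1.47% in replicates 1, 2 and 3 of the Runx1 c-k/o cells. Fosb, Fos and Klf4, immediate early transcription factor genes, kept 5.72%, 6.11% and 6.28% in replicate 2 and at most 0.758% in the other 3-h Runx1 c-k/o libraries. Among the 132 other genes that were at least 32-fold lower at 3 h than at rest in Cre-only cells, the median was 1.28%, 8.64% and 1.59% in the Runx1 c-k/o replicates, and 1.26% to 1.67% in the Cre-only samples by which these genes were chosen. The myeloid markers summed to 50.9 CPM in replicate 2 against 27.0 and 23.4 CPM in replicates 1 and 3, with Csf1r at 26.5 CPM against 5.99 and 8.36 CPM. Replicate 2 thus kept a larger share of the resting pattern across these genes, and the part of this in the Dusp1 value was not tested. Dusp6 and Dusp10 were likewise highest in this library among the 3-h Runx1 c-k/o samples.

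**Figure D2:**
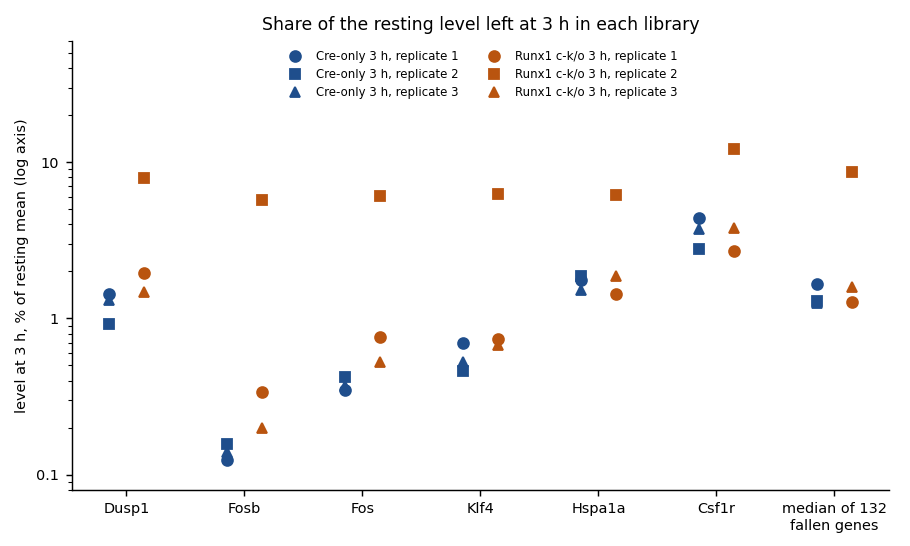
Level at 3 h as a percentage of the mean resting level of the same genotype (log axis), for Dusp1, 5 other genes that are high at rest, and the median of 132 genes that fell at least 32-fold in Cre-only cells, with 1 point for each 3-h library. Replicate 2 of the Runx1 c-k/o cells (orange squares) lies between 5.72% and 12.1%, above all other libraries.

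Dusp6, the cytoplasmic ERK phosphatase, and Dusp10, the JNK and p38 phosphatase, also fell in both genotypes. Dusp6 was at 135, 117 and 102 CPM in resting Cre-only cells and at 15.3, 11.5 and 11.0 CPM at 3 h, and it went from 133, 114 and 154 CPM to 12.7, 19.0 and 12.7 CPM in Runx1 c-k/o cells. All 3-h samples lay far below all resting ones, by 9.28-fold in Cre-only cells (log2 fold change -3.21, standard error 0.196, edgeR adjusted p = 4.03e-08) and 9.02-fold in Runx1 c-k/o cells (-3.17, standard error 0.196, edgeR adjusted p = 5.84e-08). Dusp10 went from 131, 113 and 97.6 CPM to 23.6, 16.5 and 14.0 CPM in Cre-only cells, and from 98.3, 84.9 and 93.8 CPM to 10.2, 14.3 and 9.3 CPM in Runx1 c-k/o cells. Here too rest and 3 h were well apart, with falls of 6.28-fold (edgeR adjusted p = 1.97e-07) and 8.21-fold (edgeR adjusted p = 1.18e-07). Dusp10 is overlapped on the other strand by 1700056E22Rik, with 0 shared exon bases.

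Dusp4 encodes MKP-2, a nuclear phosphatase of ERK and JNK, and it rose while Dusp1 and Dusp6 fell. It was at 97.3, 117 and 107 CPM at rest and at 195, 216 and 222 CPM at 3 h in Cre-only cells, and went from 119, 108 and 95.2 CPM to 210, 273 and 317 CPM in Runx1 c-k/o cells. Every 3-h sample was above every resting sample, with log2 fold changes of 0.98 (standard error 0.143, edgeR adjusted p = 4.79e-05) and 1.31 (standard error 0.144, edgeR adjusted p = 4.43e-06). In edgeR's test without the RUVs factor Dusp2 (PAC-1, the nuclear phosphatase first known from activated lymphocytes) was also higher at 3 h, by 0.50 in Cre-only cells (standard error 0.177, edgeR adjusted p = 0.0209) and 0.54 in Runx1 c-k/o cells (standard error 0.177, edgeR adjusted p = 0.0158). Its sign, though, turned to -0.22 and -0.21, not called, when edgeR's fit held that factor. The factor was estimated from the spread within groups and was not kept independent of time. It can therefore take up part of a change on activation. The Dusp2 samples were at 163, 202 and 185 CPM at rest and 256, 276 and 249 CPM at 3 h in Cre-only cells. In Runx1 c-k/o cells they were at 176, 262 and 198 CPM and at 395, 269 and 257 CPM, where the resting replicate 2 lay above the 3-h replicate 3 and the groups overlapped. The Dusp2 call in Cre-only cells was also lost with DESeq2's size factors (edgeR adjusted p = 0.0512), with at least 10 counts in every sample (edgeR adjusted p = 0.0808), and without resting Cre-only replicate 1 (edgeR adjusted p = 0.0807) or 3-h Cre-only replicate 2 (edgeR adjusted p = 0.0614). That in Runx1 c-k/o cells was lost with their 6 samples alone (edgeR adjusted p = 0.0711) and without resting replicate 1 (edgeR adjusted p = 0.0705) or 3 (edgeR adjusted p = 0.0539).

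Dusp5, whose protein holds ERK in the nucleus, lies on chromosome 19 of mm9 from 53603599 to 53616921, and it too fell. In Cre-only cells it was at 144, 125 and 105 CPM at rest and at 47.9, 67.4 and 68.2 CPM at 3 h. In Runx1 c-k/o cells it was at 137, 153 and 132 CPM at rest and at 123, 99.9 and 86.5 CPM at 3 h. The groups did not overlap in either genotype, and the step down was wide in Cre-only and narrow in Runx1 c-k/o cells. On the log2 scale the change was -1.03 in Cre-only cells (standard error 0.167, edgeR adjusted p = 0.000113) and -0.45 in Runx1 c-k/o cells (standard error 0.165, edgeR adjusted p = 0.0267). The call in Runx1 c-k/o cells was lost without resting replicate 2 (edgeR adjusted p = 0.0771), 3-h replicate 2 (edgeR adjusted p = 0.0729) or 3-h replicate 3 (edgeR adjusted p = 0.113). It was also lost with a replicate block within each genotype (-0.46, edgeR adjusted p = 0.0541). The fall was -0.91 once edgeR's fit held the RUVs factor (edgeR adjusted p = 0.0094).

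The SPRED genes moved in opposite directions, with the same signs in both genotypes. Spred1 was at 15.0, 14.5 and 13.8 CPM in resting and 29.5, 32.9 and 25.6 CPM in 3-h Cre-only cells, and at 16.1, 16.6 and 15.9 CPM and 25.7, 30.6 and 34.4 CPM in Runx1 c-k/o cells. Spred2 was at 10.2, 10.7 and 9.36 CPM and at 4.62, 5.29 and 4.52 CPM in Cre-only cells, and at 13.2, 11.4 and 10.5 CPM and at 4.51, 5.12 and 5.3 CPM in Runx1 c-k/o cells. No 3-h sample of either gene reached the range of its resting samples. Spred1 rose by 1.02 (standard error 0.122, edgeR adjusted p = 8.23e-06) and 0.90 (standard error 0.122, edgeR adjusted p = 2.56e-05) on the log2 scale, and Spred2 changed by -1.07 (standard error 0.132, edgeR adjusted p = 1.07e-05) and -1.23 (standard error 0.132, edgeR adjusted p = 3.59e-06).

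The Sprouty genes were low throughout. Spry1 was at 2.68 to 4.71 CPM in the Cre-only and 2.53 to 4.33 CPM in the Runx1 c-k/o samples, and its changes of -0.34 (edgeR adjusted p = 0.142) and -0.29 (edgeR adjusted p = 0.229) were not called. The change in Cre-only cells was called lower with at least 10 counts in every sample (-0.50, edgeR adjusted p = 0.0361) and with only the groups compared (-0.40, edgeR adjusted p = 0.0477). Spry2 was at 6.41, 6.15 and 5.64 CPM in resting and 4.7, 4.44 and 4.14 CPM in 3-h Cre-only cells, which do not overlap. It was at 4.92, 4.07 and 3.12 CPM and at 5.02, 3.54 and 3.47 CPM in Runx1 c-k/o cells, which do. The change of Spry2 was -0.45 in Cre-only cells (standard error 0.186, edgeR adjusted p = 0.0426) and -0.01 in Runx1 c-k/o cells (standard error 0.196, edgeR adjusted p = 0.95). The Cre-only call of Spry2 was lost when any of the 6 Cre-only samples was left out (edgeR adjusted p = 0.0574 to 0.124) and with no filter on low counts (edgeR adjusted p = 0.0501).

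**Figure D3:**
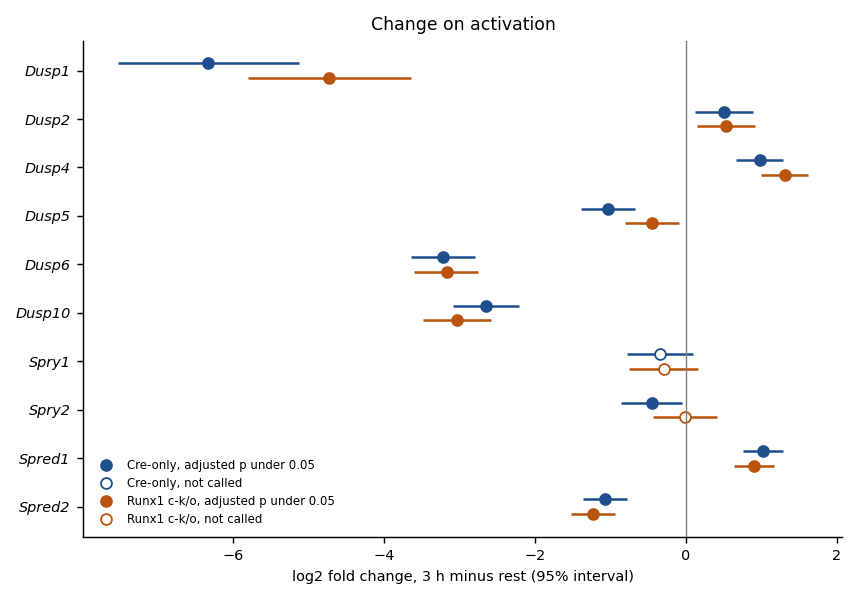
Log2 fold change from rest to 3 h of each gene in Cre-only (blue) and Runx1 c-k/o cells (orange), with 95% intervals; filled points passed the threshold of 0.05 on the adjusted p. Dusp1 (-6.33 and -4.73), Dusp6 and Dusp10 lie far to the left, Dusp4 and Spred1 to the right, and Dusp2, drawn at 0.50 and 0.54, is the gene whose sign turns with a factor of unwanted variation.

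For an order of levels between genes, normalized CPM were divided by the exon length in kb. In resting Cre-only cells the highest was Dusp1 at 116 ± 14.3 CPM per kb (SD, n = 3), then Dusp2 at 91.6 ± 9.74 (SD, n = 3). Dusp5, Dusp6, Dusp4 and Dusp10 followed at 50.4, 42.1, 39.1 and 37.4 CPM per kb, and the samples of each overlapped those of the next. The Sprouty and SPRED genes came last at 1.46 to 2.91 CPM per kb, with a clear gap below the DUSP genes. At 3 h the order in Cre-only cells was led by Dusp2 at 130 ± 7.2 CPM per kb (SD, n = 3), Dusp4 at 77.0 ± 5.14 (SD, n = 3) and Dusp5 at 24.7 ± 4.64 (SD, n = 3), each apart from the next. Dusp1 had dropped to 1.41 CPM per kb, where its samples overlapped those of Spry1 at 1.15 CPM per kb, and Dusp10, Dusp6 and Spred1 overlapped in turn at 5.92, 4.51 and 4.33 CPM per kb. The Runx1 c-k/o cells gave Dusp1, Dusp2, Dusp5, Dusp6, Dusp4 and Dusp10 in the same order at rest (131, 106, 56.9, 47.8, 39.2 and 30.3 CPM per kb), with the samples of Dusp1 and Dusp2 overlapping, and the same first 3 genes at 3 h (153, 97.3 and 41.7 CPM per kb).

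At rest edgeR called no feedback gene between the genotypes, where 1.49% of all tested genes were. At an unadjusted p under 0.05, with 11.1% of all tested genes, Spry2 alone of the 10 passed in edgeR's test, and DESeq2's Wald test called 0 of the 10. Spry2 was lower in all 3 Runx1 c-k/o samples than in any Cre-only sample, by -0.58 on the log2 scale (standard error 0.189, edgeR adjusted p = 0.219). It was called once edgeR's fit held the RUVs factor (-0.65, edgeR adjusted p = 0.0498). Spred1 was higher in all 3, by 0.16 (standard error 0.124, edgeR adjusted p = 0.659). These were the 2 genes whose samples did not overlap, against 23.7% of all tested genes. The 95% intervals of the remaining 8 genes at rest ran from -0.73 to 1.09 for Dusp1, the widest, and from -0.06 to 0.48 for Spred2, the narrowest, and differences inside these bounds are not excluded by the data. The comparisons of genotypes and of times share their samples with each other.

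After 3 h Dusp5 alone of the 10 passed the test between the genotypes, where 2.77% of all tested genes did (1.47% higher in the knockout). From the values above, all 3 Runx1 c-k/o samples (86.5 to 123 CPM) lay above all 3 Cre-only samples (47.9 to 68.2 CPM), a difference of 0.76 on the log2 scale or 1.69-fold (standard error 0.166, edgeR adjusted p = 0.0301). At rest the same gene had differed by 0.17 with overlapping samples (edgeR adjusted p = 0.711). The call depended on the samples and on the fit: it was lost with the replicate number as a block (0.75, edgeR adjusted p = 0.0603), without resting Cre-only replicate 2 (edgeR adjusted p = 0.0556), without 3-h Cre-only replicate 1, 2 or 3 (edgeR adjusted p = 0.128, 0.0716 and 0.0622), and without 3-h Runx1 c-k/o replicate 2 (edgeR adjusted p = 0.0647). It was also lost with a fit of the 3-h samples alone (edgeR adjusted p = 0.118) and without the 2 Runx1 c-k/o libraries that stood apart, where the difference was 0.64 (edgeR adjusted p = 0.115).

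Dusp1 was also higher in all 3 Runx1 c-k/o samples at 3 h (5.18 to 28.0 CPM against 2.87 to 4.49 CPM), and the 3-h samples overlapped between genotypes for all of the genes except Dusp1 and Dusp5, against 21.8% of all tested genes that did not overlap. The difference of Dusp1 was 1.78 (standard error 0.513, edgeR adjusted p = 0.0989), and it passed in DESeq2's Wald test (1.85, DESeq2 adjusted p = 0.0341). Without replicate 2 of the Runx1 c-k/o cells it was 0.64 (edgeR adjusted p = 0.166), and without replicate 3 it was 2.17 (edgeR adjusted p = 0.0234). Dusp4 differed by 0.34 (standard error 0.141, edgeR adjusted p = 0.265), which became 0.51 without Runx1 c-k/o replicate 1 (edgeR adjusted p = 0.0221) and 0.51 without both libraries that stood apart (edgeR adjusted p = 0.0150). Dusp10 went the other way, with -0.69 (standard error 0.206, edgeR adjusted p = 0.114) and 14.3 CPM in the highest Runx1 c-k/o sample against 14.0 CPM in the lowest Cre-only sample. Dusp2, Dusp6, Spred1 and Spred2 differed by 0.24, 0.22, 0.04 and 0.05, and Spry1 and Spry2 by -0.19 and -0.15, with adjusted p between 0.491 and 0.867 in edgeR's test.

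**Figure D4:**
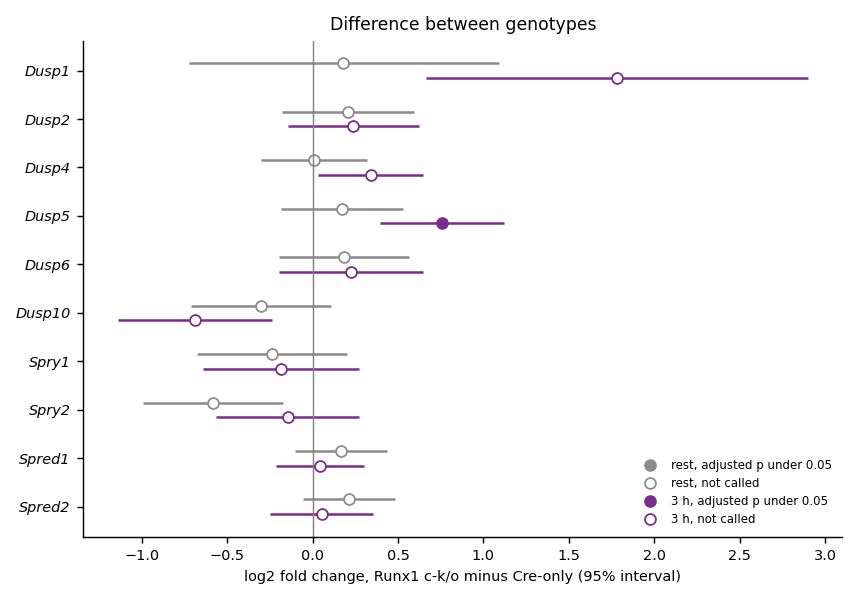
Log2 fold change of Runx1 c-k/o over Cre-only cells at rest (grey) and at 3 h (purple) with 95% intervals; the filled point passed the threshold of 0.05 on the adjusted p. Dusp5 at 3 h (0.76) is the filled point, Dusp1 at 3 h has the widest interval, from 0.67 to 2.9, and Dusp10 lies to the left at both times.

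Whether the change on activation differed between genotypes was tested by the interaction term, where 0.0813% of all tested genes were called by edgeR and none of the 10 genes was, by edgeR or by DESeq2's Wald test. At an unadjusted p under 0.05, with 5.07% of all tested genes, Dusp1 (1.60, standard error 0.66, edgeR adjusted p = 0.879) and Dusp5 (0.58, standard error 0.233, edgeR adjusted p = 0.839) passed. The genotype difference of Dusp5 was thus called at 3 h and not at rest, but the interaction, which compares these 2 differences, was not called.

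Other genes of the pathway were taken from lists written with earlier results of these data known. Of 16 further DUSP-type genes that were tested, 4 rose and 7 fell in Cre-only cells, and 5 rose and 8 fell in the knockout, where 75.0% and 74.3% of all tested genes were called in either direction. Dusp12 (log2 fold change 1.67 and 1.41), Dusp3 (1.48 and 0.84) and Styx, a catalytically inactive relative (1.21 and 1.08), rose, and Dusp18 (-4.26 and -4.09) and the Slingshot phosphatase genes Ssh1 (-3.15 and -3.18) and Ssh2 (-3.43 and -3.12), which act on cofilin, fell. Their median was -0.33 in Cre-only cells and -0.48 in Runx1 c-k/o cells. Dusp3, an ERK and JNK phosphatase, was the 1 member of this list called between genotypes at rest, where 1.49% of all tested genes were, at 20.0, 20.8 and 21.2 CPM in Cre-only cells and 31.9, 35.3 and 31.9 CPM in Runx1 c-k/o cells (0.68, standard error 0.082, edgeR adjusted p = 0.00144). At 3 h edgeR called 0 of the 16 between genotypes (1 at an unadjusted p under 0.05), and DESeq2's Wald test 0.

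A further list was written as brakes on RAS and ERK signalling, and the effect of each gene on ERK in these cells was not tested. Of its 29 tested genes, 9 were called higher and 13 lower on activation in each genotype (75.0% and 74.3% of all tested genes were called). Their median was -0.36 in Cre-only cells and -0.62 in Runx1 c-k/o cells. Trib3 (5.87 and 3.97), a pseudokinase gene, and Pebp1 (1.63 and 1.64), whose protein binds RAF, rose, and the diacylglycerol kinase gene Dgka (-4.33 and -4.01) and the ubiquitin ligase gene Cblb (-3.22 and -2.89) fell. Between genotypes 2 were called at rest and 4 at 3 h, each with more RNA in Runx1 c-k/o cells, against 1.49% and 2.77% of all tested genes. The 2 at rest were Lrig1 (log2 fold change 2.92) and Dab2ip (1.99), and at 3 h Dab2ip (2.52) and Lrig1 (1.11) differed most. Trib1, next in size at 3 h, was at 26.2, 28.8 and 28.8 CPM in Cre-only cells and 45.4, 56.3 and 49.4 CPM in Runx1 c-k/o cells (0.85, standard error 0.0903, edgeR adjusted p = 0.00029).

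Of 39 genes of the MAPK cascades themselves, 13 were called higher and 18 lower on activation in each genotype, which is near the 75.0% and 74.3% of all tested genes, with medians of -0.19 and -0.23. The p38 kinase kinase gene Map2k3 (1.73 and 1.83) and the p38 target kinase gene Mapkapk3 (2.91 and 2.52) rose, and the RAS activator gene Rasgrp2 (-5.03 and -4.43) and the other p38 kinase kinase gene Map2k6 (-4.89 and -4.20) fell. Between genotypes edgeR called 0 at rest (2 at an unadjusted p under 0.05, and 0 by DESeq2's Wald test) and Rps6ka1, an ERK target kinase gene, at 3 h (0.38, standard error 0.0858, edgeR adjusted p = 0.0366), where 2.77% of all tested genes were called.

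Of 29 early response genes, which are induced by the same pathway in many cells, 8 rose and 18 fell in Cre-only cells, and 7 rose and 17 fell in the knockout, against 38.6% rising and 36.4% falling, and 37.7% and 36.6%, of all tested genes. Fosb was at 1950 to 2110 CPM in resting and 2.55 to 3.2 CPM in 3-h Cre-only cells, and Fos at 802 to 932 CPM and 2.93 to 3.59 CPM. Egr2, whose product is a zinc finger factor, rose from 42.4 to 46.6 CPM up to 622 to 626 CPM (log2 fold change 3.81, edgeR adjusted p = 1.04e-07). At 3 h 6 of the 29 were called between genotypes by edgeR (12 by DESeq2's Wald test), each with more RNA in Runx1 c-k/o cells in edgeR's fit, among them Nr4a2 (1.49, edgeR adjusted p = 7.17e-05) and Fosl2 (1.14, edgeR adjusted p = 0.0313). Of all tested genes 2.77% were called at 3 h by edgeR, 1.47% higher in the knockout. Of 11 heat shock genes, read here for signs of handling, 5 were called higher and 4 lower on activation in each genotype (75.0% and 74.3% of all tested genes were called), and 0 between genotypes by edgeR, by DESeq2's Wald test or at an unadjusted p under 0.05. Hspa1a (-5.85) and Hspa1b (-5.79), which share near-identical sequence and whose counts are therefore uncertain, fell in Cre-only cells, and their part in the fall of the feedback genes was not tested.

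The genes whose pattern was most like that of each feedback gene were found by the root-mean-square difference of centred log2 CPM over the 12 samples. For Dusp1 the nearest was Klf2 at 0.249, a transcription factor gene that went from 955 to 18.2 CPM in Cre-only cells. For Dusp5 it was Rasd1 at 0.158, a RAS-related gene with 21.3 and 10.4 CPM in Cre-only cells and 24.0 and 16.2 CPM in Runx1 c-k/o cells at rest and at 3 h. For Dusp4 the nearest were Atp2b1 at 0.134, a calcium pump gene, and Bcl2l11 at 0.139, which encodes BIM. For Dusp6 it was Rcsd1 at 0.12, for Dusp10 Cd22 at 0.201, the BCR co-receptor gene, and for Dusp2 Rpp21 at 0.0658. For Spry1 it was P4ha1 at 0.144, for Spry2 Cdca5 at 0.105, for Spred1 Slc19a2 at 0.0877 and for Spred2 Pramef8 at 0.099.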

How the data were processed

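RNA-seq libraries of splenic B cells (4 groups of 3 samples) were made by the authors from poly(A) RNA with a stranded kit, sequenced as paired ends, aligned to mm9 with TopHat2 2.0.11 and Ensembl annotation, and counted with featureCounts; its strand setting is not given in the sources used here. The deposited values are raw counts per gene, with 0 spike-in rows, so levels are relative to each library. Genes were kept by filterByExpr of edgeR 4.0.16 (minimum 10 counts; 13538 genes), TMM-normalized, and fitted in R 4.3.3 with a robust quasi-likelihood model of all 12 samples. P-values were adjusted by Benjamini-Hochberg across the tested genes, with a threshold of 0.05. With 3 against 3 samples an exact permutation test cannot go below p = 0.1.

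The genes, the lists and the rule for naming genes (from each list the called genes with the 3 largest changes up and down) were chosen with earlier results of these data known. Alternatives were DESeq2 1.42.0 (its size factors or Wald test), filters, 1 RUVs factor of unwanted variation, replicate blocks, the compared groups alone, and each sample left out; leaving out both libraries that stood apart was chosen after seeing the data. On simulated data (genotype at 3 h, 13538 genes) edgeR called 80 of 100 genes changed by log2 1, 95 of 100 changed by log2 2 and 11 of 13338 unchanged genes. The simulated counts followed the trend of spread over level, with no spread of a gene's own and no library that stood apart. These rates may therefore not hold for the real samples. Replicate numbers correlated between resting and 3-h Cre-only samples (0.197 to 0.329 in deviations from group means, from the data). The main fit, which gave the p-values of the Results, held no pairing. A replicate block within each genotype was the paired alternative for these samples. The labels do not say what a number marks. The study calls the samples biological replicates, and whether each came from a separate mouse is not given in the sources used here, so p-values measure the spread between these samples. Positions are from the GENCODE annotation of mm9, promoters from RefSeq (GRCm38.p6).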

Additional observations from a re-analysis of the deposited data

How the results depend on the processing

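Of the 1070 values of the 10 genes under the alternatives, 31 changed sign. Dusp2 on activation turned to -0.22 (edgeR) and -0.33 (DESeq2) in Cre-only cells and to -0.21 and -0.28 in Runx1 c-k/o cells with 1 RUVs factor. Dusp4 at rest was -0.0125 with at least 10 counts in every sample and -0.0132 with only the groups compared. Without both libraries that stood apart, the interaction was -0.10 for Spry1 and 0.0212 for Spred1. With each replicate left out, values crossed 0 for Spry2 on activation in Runx1 c-k/o cells (-0.22 to 0.16), Dusp4 at rest (-0.0721 to 0.0884), Spred1 at 3 h (-0.0596 to 0.17) and the interaction of Dusp2 (-0.15 to 0.21), Dusp6 (-0.18 to 0.21), Spry1 (-0.0742 to 0.21) and Spred1 (-0.22 to 0.0204). Between genotypes 202 genes were called at rest, and 378 by DESeq2's Wald test, 602 and 514 with the factor in DESeq2 and edgeR, 598 without both libraries, and 81 to 386 with 1 replicate left out. At 3 h 375 became 709, 1275, 1062 and 914, 158 with only the groups compared, and 180 to 617; the interaction count of 11 became 83, 251, 134 and 187, and 4 to 31. Of the 10 genes, 1 (Spry2) was called at rest with the factor in edgeR, and at 3 h 2 by DESeq2, 4 (Dusp1, Dusp4, Dusp5, Dusp10) with the factor in DESeq2, 1 (Dusp4) without both libraries (where 9 and 8 were called on activation, 0 at rest and 0 for the interaction), 0 with only the groups compared, and 0 to 2 with 1 replicate left out. Activation called 7 to 9 and 7 to 8 of the 10 with 1 replicate left out (9628 to 10856 and 9472 to 10203 genes in all). The cause of these changes was not tested.

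A replicate block within each genotype, the paired fit for Cre-only activation, changed no call of the 10 genes there, and it left 4 genes with an interaction. Between the other groups the samples share only a number (correlations from -0.369 to 0.378, 1 or 2 of 6 samples correlating best with their own number). Runx1 c-k/o samples of unlike number correlated between rest and 3 h at -0.547 to 0.594. The highest value joined resting replicate 2 and 3-h replicate 1, the 2 libraries that stood apart. A block by number is thus no paired fit for these cells. With the replicate block Dusp5 at 3 h was 0.75 (edgeR adjusted p = 0.0603) and 0 of the 10 were called there, and with the block within each genotype Dusp5 on activation in Runx1 c-k/o cells was -0.46 (edgeR adjusted p = 0.0541); the block changed no other call.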
